A study of Mus musculus with 6 samples.

Results

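The receptors for the myeloid growth factors GM-CSF, IL-3, G-CSF and CSF-1 were followed through 6 genes, Csf2rb, Csf2rb2, Csf2ra, Il3ra, Csf3r and Csf1r, chosen by symbol among the 24411 genes measured. All 6 were found and all 6 passed the filter on low counts, as did 12953 genes in all. RNA-seq had been run on poly(A)-selected RNA of lineage-negative marrow cells from C57BL/6 mice, in 3 Brd9 KO libraries (CD45.2(+) Mx1-Cre Brd9fl/fl) and 3 control libraries (CD45.2(+) Brd9fl/fl). Brd9 encodes a bromodomain subunit of the non-canonical BAF chromatin remodelling complex, and Mx1-Cre is an interferon-inducible recombinase that pIpC, a double-stranded RNA mimic, switches on in blood cells and also in other cell types. Both groups were given pIpC in 3 doses of 20 mg/kg, and cells were collected 8 weeks afterwards. The first injection came 4 weeks after birth in one source and 4 weeks after transplantation in another, and the methods add a sort for the progenitor receptor c-Kit, so that the sampled population is not settled. Control mice carried no Cre, so an effect of the recombinase and loss of Brd9 cannot be told apart. The sources differ on the age of the mice as well. The libraries are described as biological triplicates, but the labels do not tie them to separate animals, and if they share animals the p-values measure only technical spread.

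These receptors pass on the signals under which marrow progenitors survive, divide and become granulocytes, monocytes and macrophages. Each receptor for IL-5, IL-3 or GM-CSF pairs a ligand-specific alpha chain (Il5ra, Il3ra or Csf2ra) with the common beta chain Csf2rb, which carries the signal through the kinase JAK2 and the transcription factor STAT5. Mice hold a further beta chain, Csf2rb2, which serves IL-3 alone together with Il3ra. The G-CSF receptor Csf3r works as a homodimer of the same cytokine receptor family, whereas Csf1r, the receptor for CSF-1 and IL-34, is a receptor tyrosine kinase.

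Because the beta chain genes are near-identical copies, reads can belong to either. Csf2rb lies on chromosome 15 from 78325752 to 78353847 on the plus strand (mm10), and Csf2rb2 lies 20030 bases away from 78282507 to 78305721 on the minus strand, each with 14 exons. Their coding sequences of 2688 and 2634 bases were identical at 95.2% of the 2628 bases aligned without gaps, and the longest identical run was 242 bases. Of all 100-base windows of the Csf2rb transcript, 7.16% were found without a difference in the Csf2rb2 transcript. The study's methods give paired reads longer than these windows, so this is not the share of reads that cannot be assigned. A stretch of exon 14, which also holds the annotated microRNA genes Mir7676-2 and Mir7676-1, shows where the genes do not differ. It is coding bases 2083 to 2202 of both genes, at chr15:78348577-78348696 and chr15:78284752-78284871, and the 120 bases are the same.
Csf2rb: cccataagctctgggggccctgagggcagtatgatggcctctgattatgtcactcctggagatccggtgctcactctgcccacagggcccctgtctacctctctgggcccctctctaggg
Csf2rb2: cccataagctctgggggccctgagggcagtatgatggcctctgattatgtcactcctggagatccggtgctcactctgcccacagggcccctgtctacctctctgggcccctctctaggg
The least alike stretch of this length within 1 exon lies in exon 4, at chr15:78338867-78338986 for Csf2rb and chr15:78294345-78294464 for Csf2rb2, and shows where reads do tell the genes apart. Capitals mark the 16 of 120 bases that differ.
Csf2rb: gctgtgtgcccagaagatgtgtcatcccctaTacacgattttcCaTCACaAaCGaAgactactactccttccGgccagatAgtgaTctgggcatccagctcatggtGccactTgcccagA
Csf2rb2: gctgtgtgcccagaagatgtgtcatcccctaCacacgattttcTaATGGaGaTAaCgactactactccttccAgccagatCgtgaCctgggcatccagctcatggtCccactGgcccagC

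The other members have no such copy beside them. Csf2ra lies on chromosome 19 from 61223957 to 61228429 on the minus strand with 12 exons, Il3ra on chromosome 14 from 14346275 to 14356011 on the plus strand with 12 exons, and Csf3r on chromosome 4 from 126024550 to 126044440 on the plus strand with 15 exons. Csf1r is on chromosome 18 and has 22 exons. The antisense gene Gm48860 overlaps 990 bases of Il3ra and the opposite-strand gene Hmgxb3 overlaps 873 bases of Csf1r. The sources disagree on whether the libraries kept strand, so reads within these overlaps cannot be assigned with certainty.

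Libraries held between 21151031 and 28500168 expected counts, and the member with the fewest reads, Csf2rb2, had at least 626 in each. Brd9 averaged 16.7 ± 3.89 CPM (read counts relative to library size, scaled between libraries by TMM) in Brd9 KO and 49.0 ± 3.11 CPM in control (SD, n = 3 each), with no overlap (log2 fold change -1.56 ± 0.17 (SE), adjusted p = 0.00345 in edgeR's quasi-likelihood test), where gene-level counts keep the reads of exons that Cre leaves in place. The 5 listed progenitor markers were present in every library. Kit, Cd34, Myb and Cd48 were not called. Gata2 was called higher, at 502 ± 64.0 CPM in Brd9 KO and 208 ± 27.4 CPM in control, with no overlap (log2 fold change 1.27 ± 0.14, adjusted p = 0.00369 in edgeR's quasi-likelihood test). Brd9 KO replicate 3 stood apart in its neutrophil genes, whose 10 listed members summed to 27888 TPM (a level within the library, scaled for transcript length) there, against 5805 and 7414 TPM in the other Brd9 KO libraries and between 6832 and 9699 TPM in control. Across all genes 1999 of 12953 were called at an adjusted p under 0.1 (15.4%), and 4150 were called without Brd9 KO replicate 3.

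The alpha chains were the most abundant members per length in both groups, and the IL-3-specific beta chain was the least abundant. In Brd9 KO the mean levels ran from Csf2ra (99.1 ± 12.2 TPM) over Il3ra (73.1 ± 10.5), Csf2rb (66.6 ± 16.6), Csf1r (47.5 ± 4.07) and Csf3r (43.8 ± 5.98) to Csf2rb2 (20.7 ± 3.81; SD, n = 3 each). In control the order was Csf2ra (74.5 ± 18.5 TPM), Il3ra (60.2 ± 10.01), Csf1r (48.1 ± 10.3), Csf3r (40.2 ± 8.36), Csf2rb (31.7 ± 9.68) and Csf2rb2 (8.20 ± 1.91). Csf2rb thus stood at rank 3 of 6 in Brd9 KO and at rank 5 of 6 in control. Neighbours in these orders overlapped in their libraries, except that Csf2rb2 lay below every other member in each group. By their level over both groups, the members other than Csf2rb2 stood between percentiles 75.2 and 87.3 of all tested genes, and Csf2rb2 stood at percentile 47.9.

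**Figure D1:**
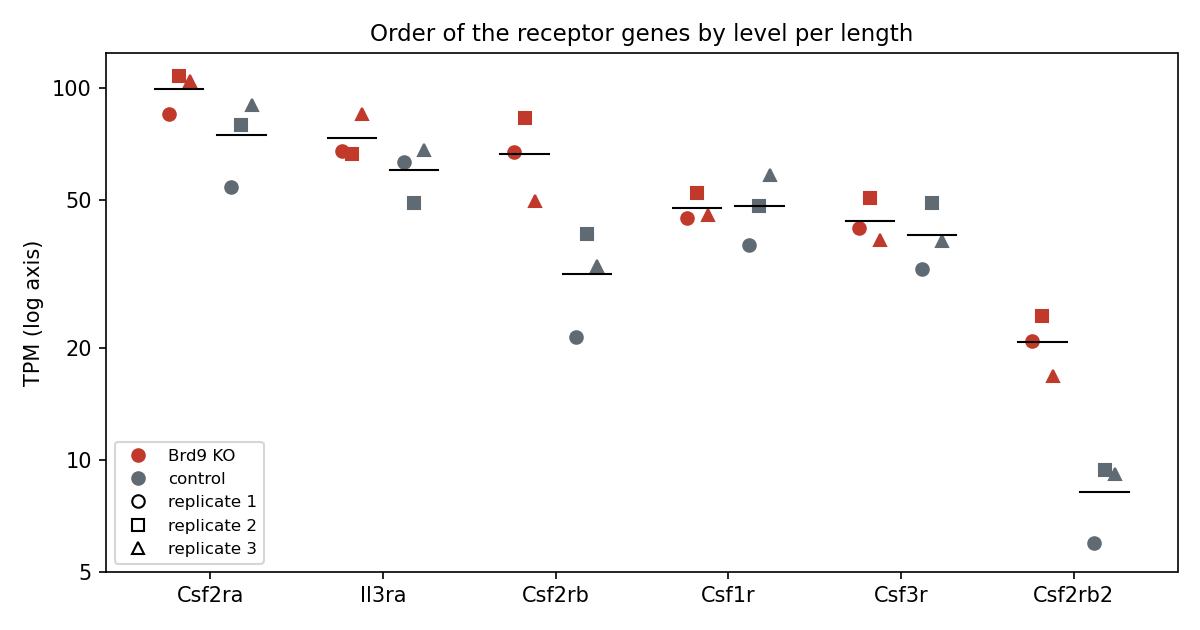
TPM (log axis) of the 6 receptor genes, ordered by their mean in Brd9 KO, with Brd9 KO libraries in red to the left and control libraries in grey to the right. Symbols are single libraries and lines are means of 3, and Csf2rb moves past Csf1r and Csf3r in Brd9 KO while Csf2rb2 stays lowest.

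Both beta chain genes were higher in Brd9 KO, and none of the other 4 members passed the test. The 2 called members of 6 stand against 9.19% of all tested genes called higher and 6.25% called lower, and both changed over 1.5-fold, where 6.77% of tested genes were called higher with such a change. Both also lay above control in every Brd9 KO library, as did 17.2% of tested genes. The same 2 genes and no other member were called under every one of the 20 alternatives run, including the leaving out of any 1 library.

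Csf2rb, the common chain, stood at 208, 235 and 189 CPM in the Brd9 KO libraries, against 91.0, 138 and 120 CPM in the control libraries. The lowest Brd9 KO library was therefore above the highest control library. The means were 211 ± 23.3 CPM in Brd9 KO and 116 ± 23.9 CPM in control (SD, n = 3 each), a 1.81-fold difference. The log2 fold change was 0.86 ± 0.17 (95% interval 0.47 to 1.24, adjusted p = 0.0240 in edgeR's quasi-likelihood test). With 1 library left out it lay between 0.71 (without control replicate 1) and 0.997 (without control replicate 2), with adjusted p between 0.0114 and 0.0859.

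Csf2rb2, the chain that serves IL-3 alone, was also higher in each Brd9 KO library than in each control library. It stood at 62.2, 66.9 and 59.8 CPM in the Brd9 KO libraries, against 23.7, 31.1 and 31.3 CPM in the control libraries. The means were 63.0 ± 3.61 CPM in Brd9 KO and 28.7 ± 4.35 CPM in control (SD, n = 3 each), a 2.19-fold difference. Its log2 fold change was 1.13 ± 0.13 (95% interval 0.83 to 1.44, adjusted p = 0.00435 in edgeR's quasi-likelihood test), and 371 called genes, itself included, were higher by at least this much. With 1 library left out the change lay between 1.01 and 1.199.

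The split of reads between the beta chain genes was partly an estimate, so they were also counted as 1 feature. The expected counts of Csf2rb and Csf2rb2 were not whole numbers in any library, while their sum was whole in all 6 (within 0.015 counts), at 6614, 8312 and 5160 in Brd9 KO and 3030, 4018 and 4110 in control. The counts of the other 4 members were whole in every library. Summed, the beta chains averaged 274 ± 26.9 CPM in Brd9 KO and 145 ± 27.9 CPM in control, a 1.89-fold difference (log2 fold change 0.92 ± 0.16, 95% interval 0.55 to 1.28, adjusted p = 0.0159 in edgeR's quasi-likelihood test). The feature was called under all 18 alternatives run for it. Csf2rb2 made up 23.7%, 22.8% and 25.3% of the summed beta chain TPM in the Brd9 KO libraries, against 21.9%, 18.9% and 21.6% in the control libraries. These shares did not overlap (exact two-sided permutation p = 0.1, the smallest that 3 libraries against 3 can give), but they rest on how the shared reads were divided.

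**Figure D2:**
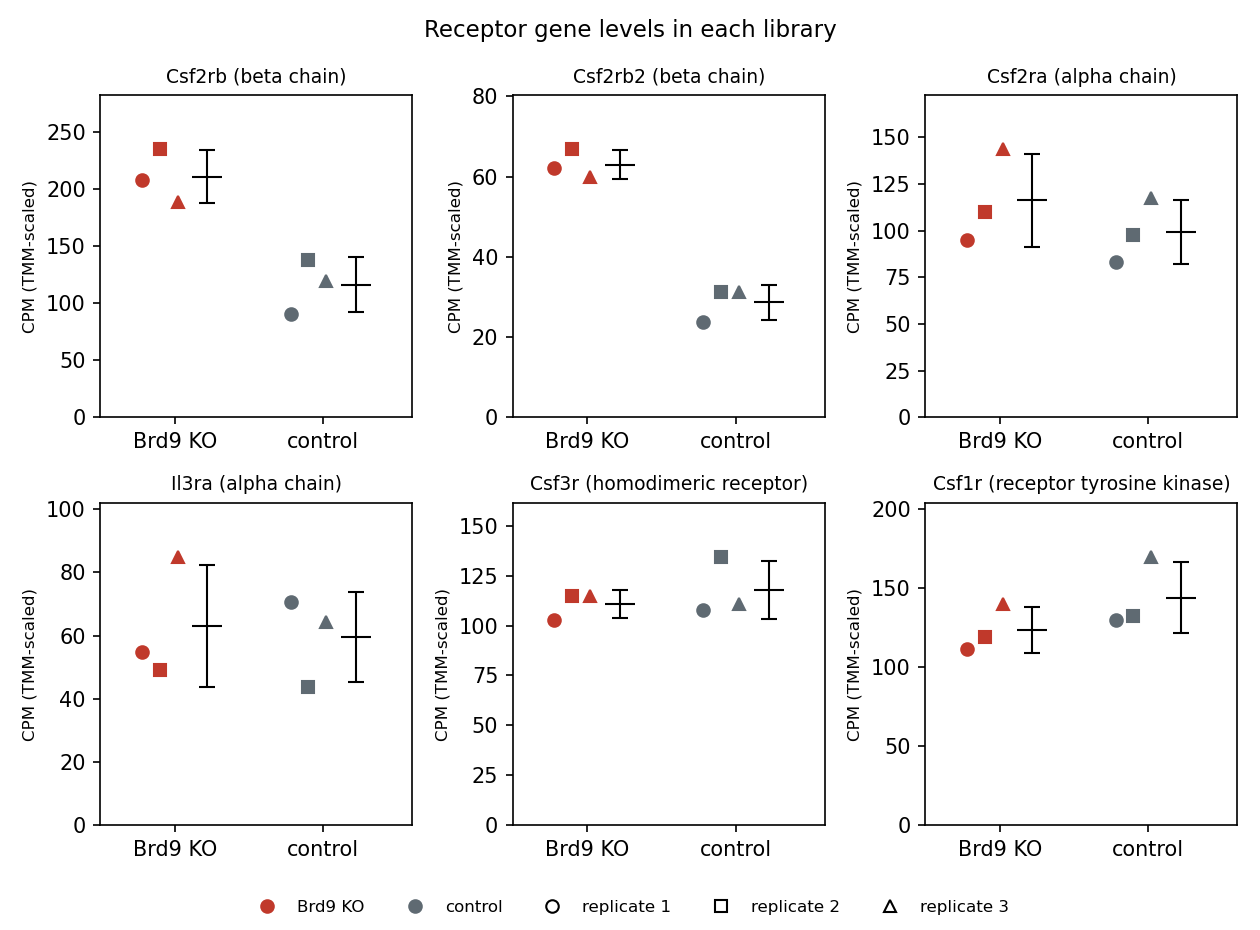
TMM-scaled CPM of each receptor gene (axes start at 0) in the single libraries, with Brd9 KO in red on the left and control in grey on the right of each panel, and bars giving mean and SD of 3 libraries. The Brd9 KO points lie above all control points for Csf2rb and Csf2rb2, and the groups overlap for the other 4 genes.

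The GM-CSF alpha chain Csf2ra overlapped between the groups. Its levels were 95.3, 110 and 144 CPM in the Brd9 KO libraries, against 83.3, 97.7 and 117 CPM in the control libraries. The log2 fold change was 0.23 ± 0.18 (95% interval -0.20 to 0.65, adjusted p = 0.451), and it was 0.04 without Brd9 KO replicate 3, the library with the highest level. The log2 fold change of the summed beta chains, 0.92, lies above this interval, but its own 95% interval of 0.55 to 1.28 overlaps it.

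The IL-3 alpha chain Il3ra overlapped between the groups too. It stood at 54.8, 49.2 and 84.9 CPM in the Brd9 KO libraries, against 70.7, 43.7 and 64.4 CPM in the control libraries. Brd9 KO replicate 3 was the highest and control replicate 2 the lowest of all. The log2 fold change of 0.08 ± 0.24 (95% interval -0.48 to 0.64, adjusted p = 0.859) took the other sign when Brd9 KO replicate 3 (-0.20) or control replicate 2 (-0.11) was left out.

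The receptors built without these chains likewise overlapped between the groups. Csf3r stood at 103, 115 and 115 CPM in the Brd9 KO libraries, against 108, 134 and 111 CPM in the control libraries. Its log2 fold change was -0.09 ± 0.12 (95% interval -0.36 to 0.19, adjusted p = 0.665), with the other sign on log2(TPM + 1) (0.13), on log2(TPM + 0.1) (0.14) and without control replicate 2 (0.02). Csf1r stood at 112, 119 and 140 CPM in the Brd9 KO libraries, against 130, 132 and 170 CPM in the control libraries. Its log2 fold change was -0.22 ± 0.14 (95% interval -0.55 to 0.11, adjusted p = 0.346), and -0.32 without Brd9 KO replicate 3. The 2 scales differ because the median log2 difference of all genes was 0.02 in CPM after TMM scaling but 0.18 in log2(TPM + 1), so changes of single receptor genes were tested in CPM. Levels compared between the groups in TPM, such as the sums of chains and of markers, carry this shift towards Brd9 KO, while ratios within a library do not.

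**Figure D3:**
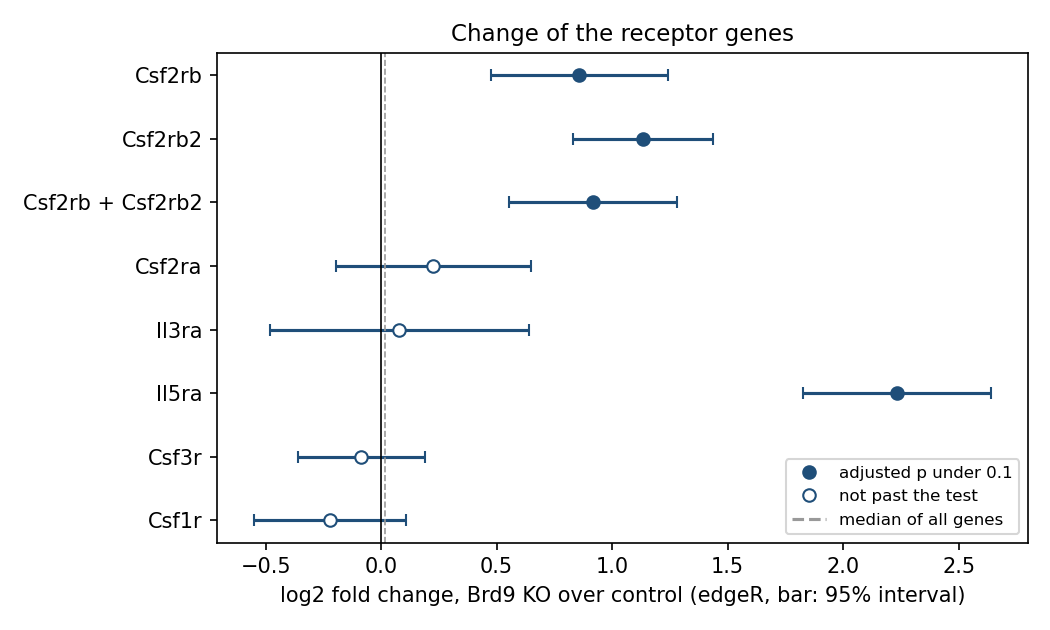
Brd9 KO over control log2 fold change (horizontal axis) with its 95% interval for each receptor gene, the beta chains counted as 1 feature, and the IL-5 alpha chain Il5ra. Filled points passed an adjusted p of 0.1, which the beta chains and Il5ra did, and the dashed line is the median of all tested genes at 0.02.

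Set against the alpha chains within each library, a measure free of library scaling, the beta chains were higher on average in Brd9 KO, but the libraries overlapped. The log2 ratio of summed beta chain TPM (Csf2rb and Csf2rb2) to summed alpha chain TPM (Csf2ra and Il3ra) was -0.80, -0.70 and -1.51 in the Brd9 KO libraries, against -2.10, -1.36 and -1.90 in the control libraries. Brd9 KO replicate 3 lay below control replicate 2, and the other Brd9 KO libraries lay above all control libraries. The means were -1.002 ± 0.45 in Brd9 KO and -1.79 ± 0.38 in control (SD, n = 3 each), a difference of 0.79 with an exact two-sided permutation p = 0.2 (0.244 adjusted over 11 ratios). On the linear scale there were 0.514 beta chain transcripts for each alpha chain transcript in Brd9 KO and 0.296 in control. Leaving out Brd9 KO replicate 3 gave a difference of 1.04, and leaving out another library gave 0.63 to 1.0003. The ratio rests on both of its parts, since summed beta chain TPM averaged 87.3 ± 20.4 in Brd9 KO and 39.9 ± 11.5 in control while summed alpha chain TPM averaged 172 ± 18.6 in Brd9 KO and 135 ± 21.3 in control.

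For single alpha chains, the summed beta chains lay above control in every Brd9 KO library when set against Csf2ra but not when set against Il3ra. The difference between these was not tested. The sum over Csf2ra is not the ratio of a receptor, since Csf2rb2 serves IL-3 alone. The log2 ratio of summed beta chains to Csf2ra was 0.05, -0.0015 and -0.65 in the Brd9 KO libraries, against -0.98, -0.67 and -1.09 in the control libraries. These do not overlap, although Brd9 KO replicate 3 all but touches control replicate 2 (exact permutation p = 0.1, the smallest possible, and 0.22 adjusted over 11 ratios). Csf2rb alone over Csf2ra, the pair of the GM-CSF receptor, was -0.34, -0.37 and -1.08 in the Brd9 KO libraries, against -1.34, -0.97 and -1.44 in the control libraries, and overlapped (exact permutation p = 0.2). For the summed beta chains over Il3ra the mean difference was 0.86 and the libraries overlapped (exact permutation p = 0.2). Csf2rb alone over Il3ra differed by 0.80 and overlapped (exact permutation p = 0.2). Csf2rb2 over Il3ra, the pair of the IL-3-specific receptor, differed by 1.07, with -1.70, -1.44 and -2.34 in the Brd9 KO libraries, against -3.40, -2.38 and -2.90 in the control libraries (exact permutation p = 0.1, and 0.22 adjusted over 11 ratios). Here too Brd9 KO replicate 3 all but touches control replicate 2, and the Csf2rb2 level rests on how the shared reads were divided. The ratio of the alpha chains to each other, Il3ra over Csf2ra, differed by -0.15 (exact permutation p = 0.9), and that of Csf3r over Csf1r by 0.14 (p = 0.7 in the same exact test).

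The IL-5 alpha chain Il5ra, the remaining partner of Csf2rb, was higher in Brd9 KO too. It stood at 10.1, 12.005 and 9.84 CPM in the Brd9 KO libraries, against 2.31, 2.19 and 2.28 CPM in the control libraries. The log2 fold change was 2.23 ± 0.18 (adjusted p = 0.00122 in edgeR's quasi-likelihood test). The log2 ratio of Csf2rb to Il5ra TPM was accordingly lower in Brd9 KO, at 3.93, 3.85 and 3.82, against 4.85, 5.54 and 5.27 in control (exact permutation p = 0.1). Il5ra remained the least abundant alpha chain, with a mean of 4.56 TPM in Brd9 KO and 0.823 TPM in control.

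**Figure D4:**
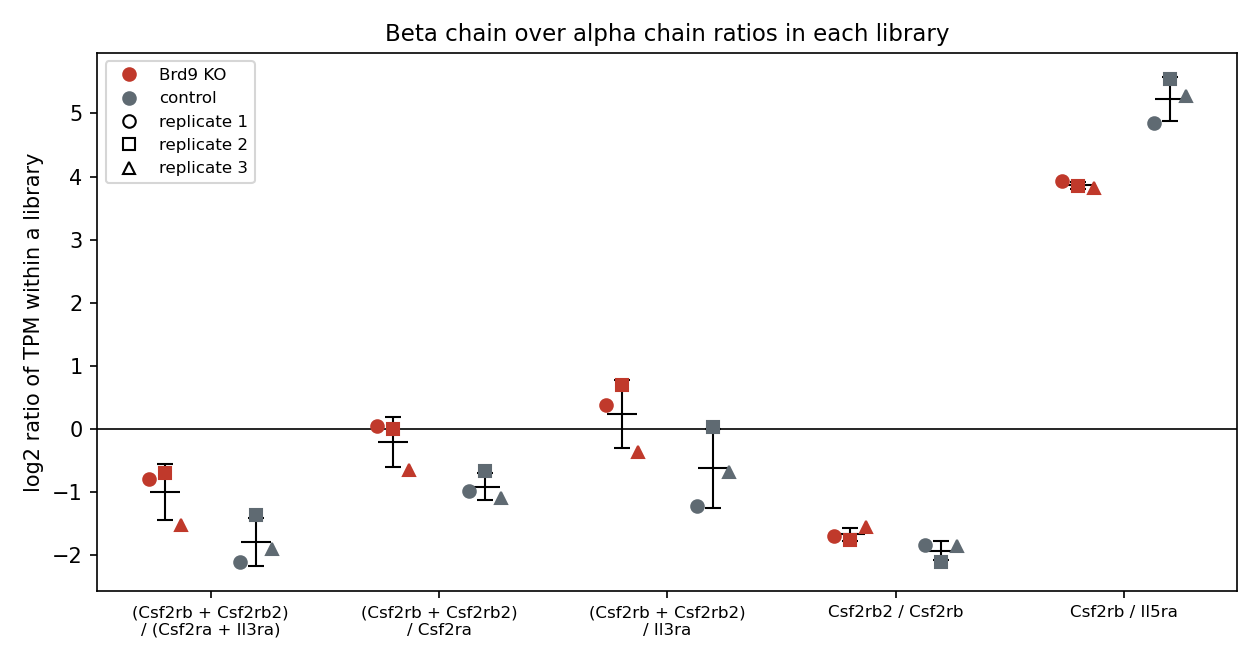
Log2 ratio of TPM within each library (vertical axis) for beta chains over alpha chains and for 2 further pairs, with Brd9 KO in red left of control in grey and bars giving mean and SD of 3 libraries. Brd9 KO replicate 3 (triangle) lies within the control range for the summed chains at -1.51, and Csf2rb over Il5ra lies lower in all 3 Brd9 KO libraries.

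Markers of blood cell types and of stroma were read as well, and their part in the results was not tested. Their counts stand beside 9.19% of all tested genes called higher and 6.25% called lower. In whole populations of cells, a change in the number of cells of a type and a change in RNA per cell cannot be told apart. Of 6 eosinophil genes, which include Il5ra, 5 were higher and Epx was lower, and their summed level was between 8328 and 13095 TPM in Brd9 KO against 3163 to 3454 TPM in control, of which Prg2 alone held a mean of 9713 TPM in Brd9 KO and 3101 TPM in control. Of 6 basophil and mast cell genes 4 were higher, with sums between 2884 and 3135 TPM in Brd9 KO against 1227 to 1649 TPM in control. Of 6 monocyte genes, which bear on Csf1r, 2 were lower and none was higher, with sums between 1623 and 2580 TPM in Brd9 KO against 2648 to 3340 TPM in control. Most of this sum is Ly6c2, with a mean of 1648 TPM in Brd9 KO and 2399 TPM in control, which was not called (adjusted p = 0.178). Of 8 macrophage genes 5 were higher and 2 lower, with sums between 109 and 137 TPM in Brd9 KO against 54.4 to 89.8 TPM in control. Of 10 neutrophil genes, which bear on Csf3r, none was higher and Camp was lower. Stromal genes were called higher in 4 of 4, with sums between 35.0 and 67.8 TPM in Brd9 KO against 6.32 to 9.51 TPM in control. Most of this sum is Cxcl12, with a mean of 41.0 TPM in Brd9 KO and 5.98 TPM in control. Lepr, the lowest of them, averaged 1.01 TPM in Brd9 KO and had 14, 6 and 24 reads in the control libraries. It passed the filter only with the 94, 133 and 43 reads of the Brd9 KO libraries. Its direction within the 4 of 4 was thus partly fixed by the filter. None of the listed markers was at 0 in all libraries. Itgam, a target of the lineage depletion, averaged 38.2 ± 7.63 TPM in Brd9 KO and 14.8 ± 4.41 TPM in control (log2 fold change 1.19, adjusted p = 0.0191).

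Among the ligands, Csf1, which encodes CSF-1, was the only one with more than 23 reads in a library. Csf1 stood at 53.7, 56.6 and 58.0 CPM in the Brd9 KO libraries, against 23.9, 27.6 and 27.1 CPM in the control libraries (log2 fold change 1.098 ± 0.10, adjusted p = 0.00246 in edgeR's quasi-likelihood test). Every Brd9 KO library was more than 1.5-fold above every control library. Il34, the other ligand of Csf1r, was also called higher, but its 6 to 8 reads in the control libraries are near the limit of detection and it passed the filter through the 12 to 23 reads of the Brd9 KO libraries. It stood at 0.941, 0.437 and 0.964 CPM in Brd9 KO against 0.303, 0.253 and 0.221 CPM in control (1.56 ± 0.43, adjusted p = 0.0669). It was not tested where 10 counts were required in all libraries, and the Il34 call was lost without Brd9 KO replicate 1 or without any 1 control library (adjusted p up to 0.208). Csf2, which encodes GM-CSF, had between 3 and 10 reads per library, Csf3, Il3 and Il5 had at most 2, and none of these 4 could be tested.

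Of the 58 listed genes of the pathway, the ligands included, 54 passed the filter, with 20 called higher, 3 called lower and 31 not called. Their median log2 fold change was 0.30, beside 0.02 for all genes tested. Over all tested genes 9.19% were called higher and 6.25% lower. Il34 and Pdgfra, which are among the 20 and in the median, passed the filter through the Brd9 KO libraries, so their direction was partly fixed by the filter. With 10 counts required in all libraries, 19 genes of the pathway were called higher and 3 lower. The count of 23 called genes became 7, 10 and 31 when Brd9 KO replicate 1, 2 or 3 was left out, and 10, 9 and 10 when control replicate 1, 2 or 3 was.

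Related receptors moved in both directions. Of 4 other type III receptor tyrosine kinases, the family of Csf1r, the platelet-derived growth factor receptors Pdgfra (log2 fold change 2.74 ± 0.61, adjusted p = 0.0369) and Pdgfrb (1.27 ± 0.20, adjusted p = 0.0118) were higher, and Kit and Flt3 did not pass. Stromal cells make both of these platelet-derived growth factor receptors, and Pdgfra averaged 0.183 TPM in Brd9 KO and 0.0233 TPM in control. Pdgfra had 1, 1 and 7 reads in the control libraries and passed the filter through the 17, 28 and 14 reads of the Brd9 KO libraries, so that it was not tested where 10 counts were required in all libraries. Its log2 fold change was 4.16 without control replicate 3, and its call was lost on log2(TPM + 1) and when Brd9 KO replicate 2 or control replicate 1 or 2 was left out. Among the homodimeric cytokine receptors, the family of Csf3r, the erythropoietin receptor Epor was lower, at 53.6, 47.9 and 60.4 CPM in Brd9 KO, against 82.1, 69.8 and 75.3 CPM in control (-0.49 ± 0.12, adjusted p = 0.0464). Its call was lost on log2(TPM + 1) and log2(TPM + 0.1), and without Brd9 KO replicate 1 or 2 or control replicate 1 or 3.

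Downstream of the receptors, 6 of 15 JAK-STAT and feedback genes and 5 of 18 adaptors and kinases were higher, and none was lower. The shares of all tested genes were 9.19% higher and 6.25% lower. Jak2, the kinase bound by the beta chain, stood at 194, 197 and 156 CPM in the Brd9 KO libraries, against 101, 122 and 126 CPM in the control libraries (0.65 ± 0.13, adjusted p = 0.0307), and lost its call without Brd9 KO replicate 1. Stat3 (0.42 ± 0.10, adjusted p = 0.0418) and Cish, a STAT5-induced inhibitor of these receptors (0.90 ± 0.24, adjusted p = 0.0593), were higher as well. The calls of both were lost without Brd9 KO replicate 1 or 2 or control replicate 3, and in addition without control replicate 1 for Stat3 and control replicate 2 for Cish. The STAT5 genes Stat5a (-0.02, adjusted p = 0.925) and Stat5b (0.07, adjusted p = 0.665 in edgeR's quasi-likelihood test) were not called. Among the Socs and Pim genes of the list, Socs3 and Pim2 were called higher, and Socs1, Socs2 and Pim1 were not called. Gab2, a scaffold that links the beta chain to phosphoinositide 3-kinase, stood at 53.8, 56.0 and 50.5 CPM in Brd9 KO, against 30.5, 36.6 and 38.2 CPM in control (0.61 ± 0.12, adjusted p = 0.0225), and was called under all 18 alternatives run for it. The Src family kinase Lyn was also higher (0.39 ± 0.09, adjusted p = 0.0462), and lost its call without Brd9 KO replicate 1 or control replicate 2 or 3.

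Of 10 listed transcription factor genes, which include regulators of myeloid receptor genes, 3 were higher and 2 lower, beside 9.19% and 6.25% of all tested genes. Irf8, a regulator of monocyte fate, stood at 214, 208 and 215 CPM in the Brd9 KO libraries, against 340, 315 and 425 CPM in the control libraries (-0.76 ± 0.13, adjusted p = 0.0153), and was not called on log2(TPM + 1) or log2(TPM + 0.1). Runx1 (0.55 ± 0.13, adjusted p = 0.0404) and Cebpa, which directs granulocyte-monocyte progenitors (0.38 ± 0.09, adjusted p = 0.0447), were higher. The Runx1 call was lost without Brd9 KO replicate 1 or 2 or control replicate 1 or 2, and the Cebpa call without any 1 library other than Brd9 KO replicate 3.

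**Figure D5:**
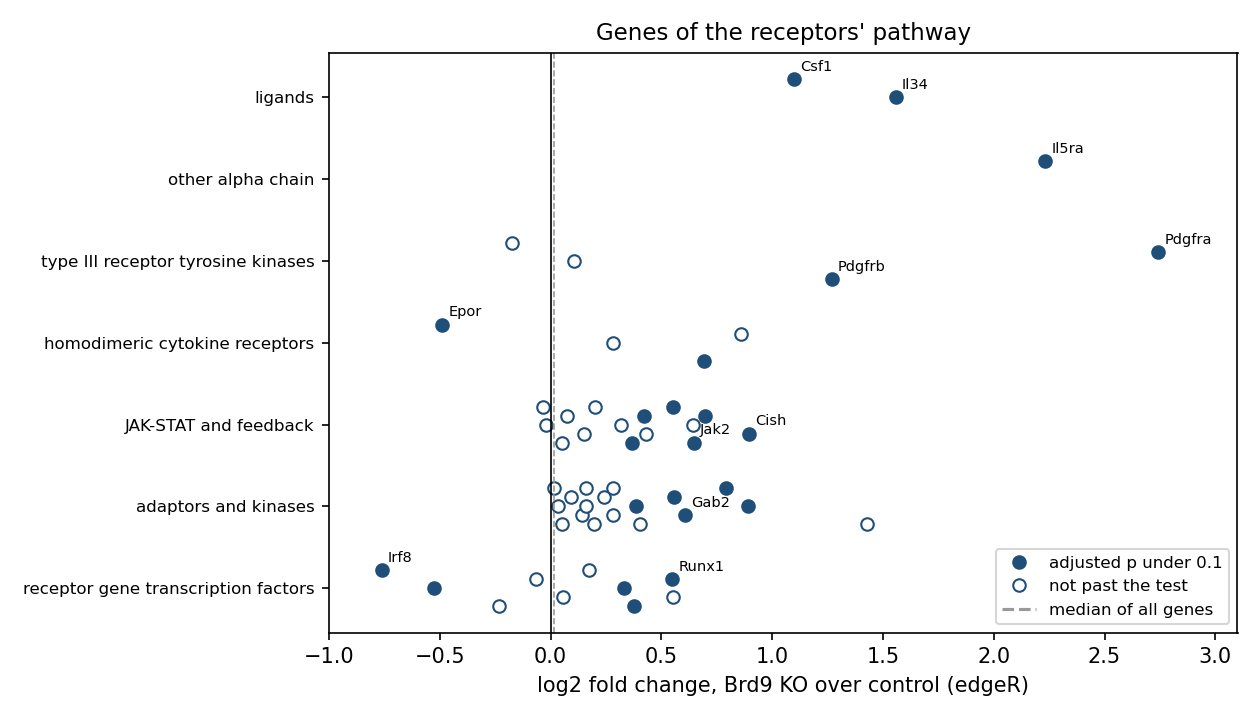
Brd9 KO over control log2 fold change (horizontal axis) for the 54 tested genes of the pathway, grouped by role, with filled points at an adjusted p under 0.1 and the median of all tested genes dashed. Of the filled points 20 lie above 0 and 3 below, and Il5ra, Pdgfra and Il34 lie farthest to the right among them. Pdgfra and Il34 passed the filter through the Brd9 KO libraries.

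The genes most like each member over the 6 libraries were found by the root mean square difference of log2 CPM after each gene's own mean was removed, among 10248 genes with a mean over 5 CPM. For Csf2rb these were Ralgps1 (0.04), Dock5 (0.06) and Krba1 (0.08), and for Csf2rb2 they were Ets1 (0.08), Tulp3 (0.08) and Kif21b (0.08), where the median gene differed by 0.51 and 0.62. The selection over all 6 libraries fixes that such genes follow the member between the groups, and all 6 were called higher, with log2 fold changes between 0.86 (Dock5) and 1.199 (Kif21b), and all but Ralgps1 kept their call without any 1 library. Ralgps1 lost it without Brd9 KO replicate 1 or 2 or control replicate 3. For Csf2ra they were E2f2 (0.04), Gpx3 (0.04) and Gt(ROSA)26Sor (0.05), for Il3ra Zfp688 (0.05), Rgs2 (0.06) and Nagk (0.07), and for Csf3r Slc35c1 (0.03), Cdc25a (0.03) and Lonrf1 (0.04). For Csf1r they were Ms4a6c (0.04), one of the listed monocyte markers, Fam129b (0.05) and Rab3il1 (0.06). None of these 12 genes was called, which the selection likewise fixes in large part, although Ms4a6c was called lower without Brd9 KO replicate 3 (-0.35).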

How the data were processed

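Per the study's methods, the authors aligned reads with STAR and quantified genes with RSEM within nf-core, on mm10. The deposited files give each gene's expected count in a library, in which shared reads are divided and which need not be whole, the TPM computed by the authors' RSEM run and an effective length. Expected counts were rounded, filtered with filterByExpr, scaled by TMM and tested by the quasi-likelihood method of edgeR 4.0.16 under R 4.3.3 without covariates, with Benjamini-Hochberg adjustment across 12953 genes. A gene was called at an adjusted p under 0.1. Single values were compared with exact two-sided permutation tests over libraries, whose smallest p here is 0.1. Gene positions and coding sequences came from GENCODE for mm10, matched through the RefSeq transcripts in the files. Totals ran between 21151031 and 28500168 per library, and no 2 libraries of a group agreed within counting noise (between 10.6 and 80.2 chi-square units per degree of freedom).

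The 6 receptor genes and all gene lists were chosen with earlier results of these data known. Named are Brd9, the receptors, Il5ra, tested ligands, up to 3 called genes per pathway list by smallest p, and the 3 genes most like each receptor. Genes named beside these, such as single markers, were picked after their values were seen. Alternatives changed the scaling, the filter or the threshold, or used DESeq2 1.42.0, limma 3.58.1 (voom, or log2(TPM + 1) and log2(TPM + 0.1)), robust fitting, effective length as an offset, the replicate number as a block, and each library left out in turn. The procedure was tested on simulated counts. Some genes chosen this way are left unreported, and Ly6g was not analysed here.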

Additional observations from a re-analysis of the deposited data

How the results depend on the processing

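Csf2rb and Csf2rb2 were called, and no other member was, under all 20 alternatives, with DESeq2 and limma included. The number of genes called over the whole table was 1999 (1190 higher and 809 lower), 1015 at an adjusted p under 0.05, 1225 with a change over 1.5-fold required, 2750 with DESeq2, and between 641 and 4150 with 1 library left out. The split was 1402 higher and 489 lower with library totals alone, 1114 and 224 on log2(TPM + 1), and 1125 and 215 on log2(TPM + 0.1). The pathway genes called numbered 23, and between 7 and 31 with 1 library left out. The beta to alpha chain difference was between 0.63 and 1.04 with 1 library left out, 0.78 in expected counts, and 0.73 and 0.99 for Csf2rb and Csf2rb2 alone.

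Among genes not called, the sign of the log2 fold change turned for some. With 1 library left out the ranges were -0.20 to 0.23 for Il3ra, -0.15 to 0.017 for Csf3r, -0.021 to 0.35 for Gpx3, -0.14 to 0.27 for Zfp688, -0.24 to 0.16 for Rgs2, -0.075 to 0.32 for Nagk and -0.12 to 0.017 for Slc35c1. On log2(TPM + 1) and log2(TPM + 0.1) the values were 0.13 and 0.14 for Csf3r, 0.13 and 0.13 for Slc35c1, 0.10 and 0.10 for Cdc25a, 0.13 and 0.15 for Lonrf1, and 0.023 and 0.025 for Fam129b, scales on which the median of all genes was 0.18 and 0.22. With library totals alone, where that median was 0.10, Slc35c1 and Lonrf1 stood at 0.017 and 0.019, and limma-voom gave -0.00083 for Rgs2.

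Between libraries of the same replicate number, the r of deviations from the group means was -0.09, 0.47 and 0.02 for replicates 1, 2 and 3. Differently numbered libraries reached values of like size, from -0.46 (Brd9 KO replicate 2 with control replicate 1) to 0.38 (Brd9 KO replicate 3 with control replicate 1). The numbers were therefore not taken to pair the libraries. With the replicate block, 2077 genes were called, and Csf2rb (0.87) and Csf2rb2 (1.14) remained the members called. With 3 libraries a group the exact tests cannot pass 0.05, and the intervals of Csf2ra, Il3ra, Csf3r and Csf1r leave room for changes of up to 0.65 on the log2 scale.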
